A study of Mus musculus with 2 samples.

Results

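The rim of lung around a breast cancer metastasis was described here as the tumour margin, meaning the Visium spots 1 or 2 hex steps (100 or 200 µm) from the metastatic core. It held 76 of the 1110 spots over tissue in the metastatic section and of the 2998 spots in both sections. The core was chosen by measured values: among spots with at least 1000 counts, the 80 with the highest mean log1p (counts per 10000) of Myc, Csn3, Etv4, Mmp3 and AA467197 were taken, and a spot stayed if 2 or more of its 6 neighbours were also among them. This left 64 core spots, with 43 margin spots at 1 step and 33 at 2 steps. A further 125 spots lay 3 to 5 steps away, 839 lay over 5 steps away and are called far lung, and 6 spots had too few counts. The score was 0.579 in the last spot inside the top 80 and 0.573 in the first outside it, so spots on either side of the core's border were close in score. Of 16 top spots dropped for lack of neighbours, 11 fell in the margin.

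The series compared 1 lung section of a mouse bearing a 4T1 tumour in the mammary fat pad with 1 section of an untreated control lung. 4T1 is a mouse mammary carcinoma line that spreads from the fat pad to the lung. The study's methods describe female Balb/c mice of 6 to 8 weeks that received 1000000 cells and were euthanized after 21 to 23 days; the control lung is labelled as untreated, with neither strain nor age given. Every value below comes from 1 section per condition, so there is no replicate error and no test. Levels are summed counts per 10000 summed counts of a zone, and the intervals in brackets are exact 95% intervals that cover counting error alone. A spot holds several cells, and more cells of a type cannot be told apart from more RNA per cell.

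At the border of a growing tumour, T cells and NK cells can release interferon-gamma, which acts through its receptor and JAK kinases. Cells that receive it secrete the chemokines CXCL9 and CXCL10, which attract lymphocytes bearing CXCR3, make the GBP and IRG families of defence GTPases, and load more peptide onto MHC molecules. Macrophages that respond to IL-4 and IL-13 instead make Retnla, Arg1 and Chil3, and in the lung both kinds of response meet the surfactant-making alveolar type II (AT2) cells, the flat alveolar type I (AT1) cells and the capillaries.

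The promoters of both CXCR3 ligands and of Igtp, an IRG GTPase, are shown as examples picked by hand. Like 20.0% of all genes compared, these genes stood 2-fold above far lung in the margin. None was 2-fold above the core. They differ in the motif letters they hold. Each runs 5′ to 3′ from 250 bases before to 50 after the RefSeq start (build GRCm38.p6), with matches on either strand in capitals, either to GAAA, any 2 bases and GAAA (the interferon-stimulated response element, ISRE) or to TTCNNNGAA (the gamma-activated site, GAS). Cxcl9 lies at chr5:92328030-92328329 and Cxcl10 at chr5:92348840-92349139, both on the minus strand, and Igtp lies at chr11:58199306-58199605 on the plus strand.
Cxcl9: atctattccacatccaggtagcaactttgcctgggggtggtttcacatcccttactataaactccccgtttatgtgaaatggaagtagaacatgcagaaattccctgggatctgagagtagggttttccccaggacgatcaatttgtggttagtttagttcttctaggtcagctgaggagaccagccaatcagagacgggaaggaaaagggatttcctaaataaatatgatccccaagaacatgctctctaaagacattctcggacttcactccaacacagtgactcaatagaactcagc
Cxcl10: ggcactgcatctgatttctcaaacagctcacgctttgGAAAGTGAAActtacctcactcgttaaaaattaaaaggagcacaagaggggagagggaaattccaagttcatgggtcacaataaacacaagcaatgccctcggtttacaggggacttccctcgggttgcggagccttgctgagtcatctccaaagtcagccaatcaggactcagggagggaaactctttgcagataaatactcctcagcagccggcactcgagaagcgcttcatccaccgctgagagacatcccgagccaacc
Igtp: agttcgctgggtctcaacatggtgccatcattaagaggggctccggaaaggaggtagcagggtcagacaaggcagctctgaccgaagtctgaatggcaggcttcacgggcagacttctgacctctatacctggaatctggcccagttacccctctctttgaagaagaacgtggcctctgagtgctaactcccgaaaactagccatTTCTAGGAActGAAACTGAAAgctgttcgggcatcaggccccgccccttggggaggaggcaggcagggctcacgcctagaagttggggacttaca
Cxcl10 held 1 ISRE match that began 213 bases before the start. Igtp held 1 of each, at 34 bases for the ISRE and 45 bases for the GAS, and Cxcl9 held neither in this window. ISRE letters occurred in 3.44% of the 32851 promoters in the table and GAS letters in 8.30%. For 10 of the 16 GBP and IRG genes a promoter was matched, and 9 of their 11 promoters held the ISRE and 6 held the GAS. Of 15 promoters of type I interferon antiviral genes, 10 held the ISRE and 3 the GAS. Of 8 promoters of MHC class II genes, 0 held the ISRE and 1 the GAS. Of the 13 promoters of 9 among the 15 genes that stood highest above both core and far lung, 0 held the ISRE and 3 held the GAS. A match of letters is a description of the sequence and not a measured binding site.

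**Figure D1:**
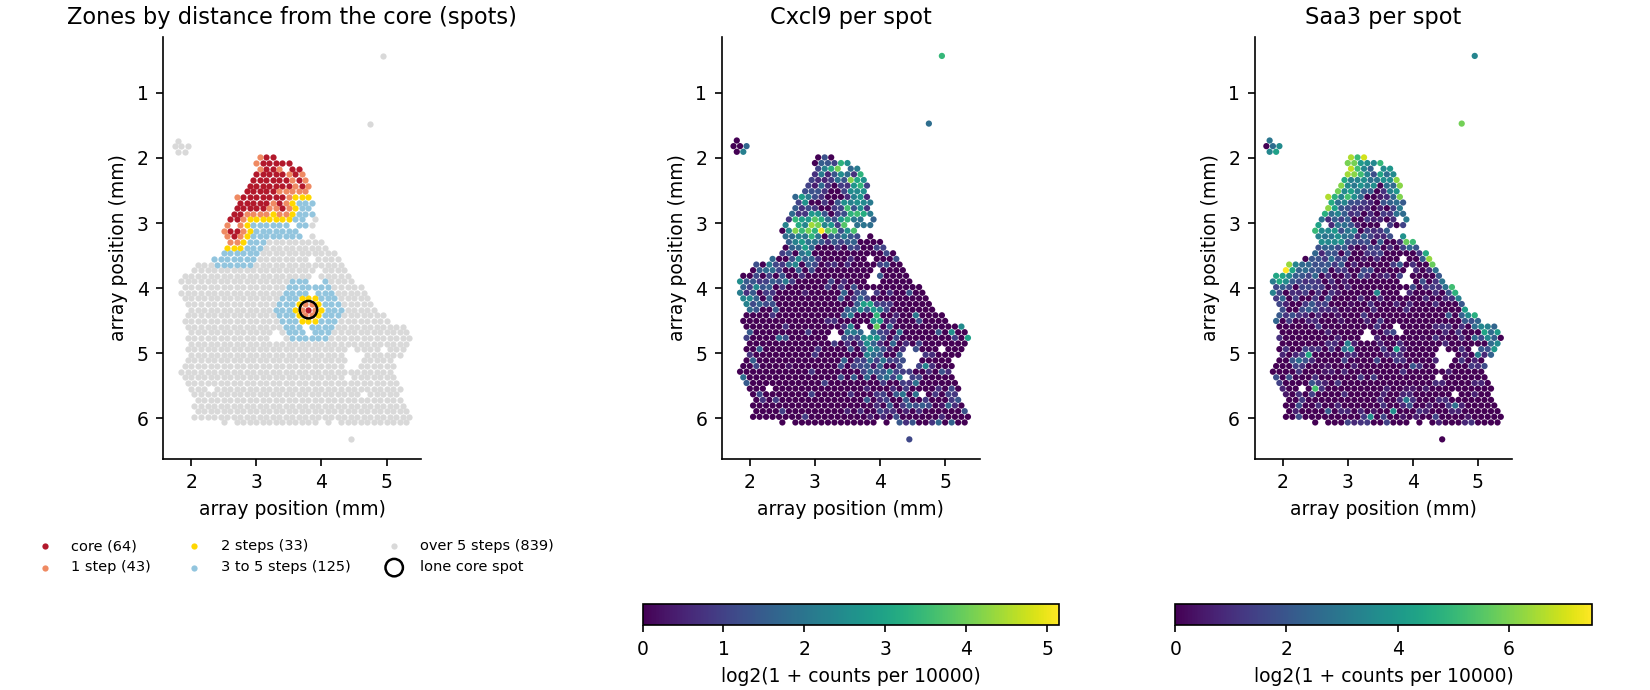
Spots of the metastatic section at their array positions (mm), coloured by zone (left) and by the level of Cxcl9 (middle) and Saa3 (right) as log2(1 + counts per 10000). The large core lies at the upper tip of the tissue, the lone core spot lies inside the lung, Cxcl9 is high below the large core, and Saa3 is high along the outer edge of the tissue.

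The core fell into patches of 60, 3 and 1 spots. The patches of 60 and 3 lay side by side at the tip of the tissue and had 58 margin spots, while the single core spot lay inside the lung and had 18. At 1 step, 15 of 43 margin spots had fewer than 6 neighbours over tissue and are called edge spots (holes in the tissue count as edge), against 3 of 33 at 2 steps, 20 of 64 in the core and 164 of 839 in far lung. The margin held 989890 counts, the core 1363958 and far lung 10766109. The median spot had 14031 counts at 1 step, 10996 at 2 steps, 21333.5 in the core and 10902 in far lung. Scgb1a1, the main secretory protein of airway club cells, took 23.2% of the counts of far lung but 0.404% of the margin's, and haemoglobin took 5.12% and 0.490%, which moves every ratio to far lung. The 2 libraries shared 858 spot barcodes, as the arrays use a common barcode set.

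The genes that chose the core, a transcription factor of growth (Myc), a milk casein (Csn3), an ETS factor (Etv4), a stromelysin (Mmp3) and AA467197, are a description of the rule. Their summed level was 10.0 in the core, 4.47 at 1 step, 3.77 at 2 steps and 0.378 in far lung. Myc stood at 2.97 in the core and 2.21 in the margin, while Mmp3 stood at 3.20 and 0.616. A list of mammary carcinoma epithelial genes, which the rule did not use, summed to 6.45 in the core, 8.80 in the margin and 23.2 in far lung. The untreated control section read 30.8, so these genes are not particular to 4T1 cells. Of 11 compared, 6 were 2-fold higher in the margin than in the core, 7 were 2-fold lower than in far lung and 1, Trps1, was 2-fold higher than in far lung. Krt8 read 2.48 in the core, 1.76 in the margin and 1.42 in far lung. Epcam, an epithelial adhesion protein, was at 0.0733 in the core and 0.534 in far lung, so the core was low in this defining epithelial marker. The zones are therefore named by position and by the rule's genes.

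Of 10262 genes with at least 100 counts over margin, core and far lung, 1435 (14.0%) were at least 2-fold higher in the margin than in the core and 163 (1.59%) at least 2-fold lower. Against far lung, 2054 (20.0%) were at least 2-fold higher and 1114 (10.9%) lower. With a library size that leaves out haemoglobin, mitochondrial, surfactant, immunoglobulin and secretoglobin genes, the median log2 ratio to far lung of all genes moved from 0.38 to -0.12, and the counts became 823 higher and 1896 lower. The list counts against far lung alone that follow use all counts and were not repeated with this library size. Of all genes compared, 5421 had a level between core and far lung, 3976 had one above both and 865 one below both. At least 2-fold above both stood 148 genes (1.44%), of which 61 had 50 or more counts in the margin. Around the lone core spot alone, 142 of them were above both by any amount, with no 2-fold limit. Its spots also entered the choice, so this is not an independent check. By any amount, 38.7% of all genes compared stood above both in the whole margin. Of the 148, 19 were also 2-fold higher than at 3 to 5 steps.

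**Figure D2:**
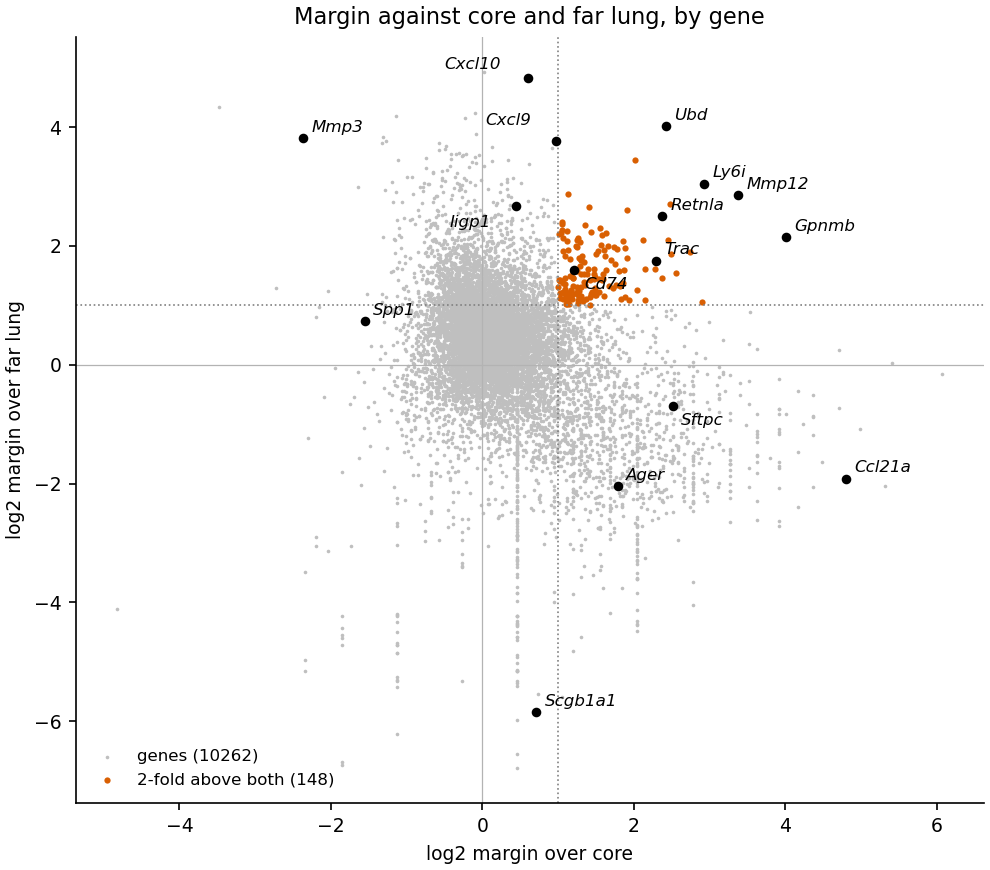
Log2 ratio of the margin to the core (x) against log2 ratio of the margin to far lung (y) for 10262 genes (grey), with the 148 genes at least 2-fold above both in orange and named genes in black. Dotted lines mark 2-fold. Cxcl9, Cxcl10 and Iigp1 lie high on y but left of the 2-fold line on x, while Retnla, Mmp12, Ubd and Gpnmb lie beyond both lines.

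All 4 genes given as markers of the margin, Cxcl9, Cxcl10, Retnla and Iigp1, were at least 2-fold higher there than in far lung, and 1 of 4, Retnla, was also 2-fold above the core. These 4 were given with earlier results of these data known, so their levels are a description and not a test. Of all genes compared, 20.0% were 2-fold higher than far lung. Cxcl9, a CXCR3 ligand, ran from 0 through a median of 3.78 to 16.9 counts per 10000 over the spots at 1 step, and from 0 through 2.45 to 15.5 at 2 steps. In the core its spots ran from 0 through 1.24 to 17.1, and in far lung from 0 through 0 to 9.71. The ranges overlapped in all zones, with more margin than core spots at high values. Summed, Cxcl9 read 4.38 (3.98 to 4.82) in the margin and 2.23 (1.99 to 2.49) in the core, a ratio of 1.97 (1.69 to 2.29). With the smaller core patches alone, which hold 4 core spots, the direction turned and the ratio was 0.634. Far lung had 0.323 and the control section 0.00345, from 7 counts.

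Cxcl10 is the other CXCR3 ligand. Its spots ran from 0 through 2.52 to 21.2 at 1 step and from 0 through 2.04 to 10.7 at 2 steps, and the highest value of all, 38.4, was in a core spot. The level was 4.40 at 1 step, 3.41 at 2 steps, 2.65 in the core and 0.140 in far lung, and the margin was 1.52 times the core (1.31 to 1.75) and 28.6 times far lung (23.6 to 34.7), or 11.8 times with a core from the top 60 spots. The level at 1 step was 1.29 times that at 2 steps (1.05 to 1.60), and for the other 3 markers the interval of this ratio held 1. Their receptor Cxcr3 had 24 counts in the margin and 16 in the core, too few for the genes compared.

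Retnla, a secreted protein of macrophages that respond to IL-4 and IL-13, had the highest ratio to the core of the 4 markers. Single spots ran from 0 through 0.625 to 16.8 at 1 step, from 0 through 1.19 to 11.9 at 2 steps and from 0 through 0 to 15.8 in the core. A few spots carried the gene, since the 5 richest held 59.3% of its counts at 1 step and 62.1% at 2 steps. The level was 3.24 at 1 step and 3.18 at 2 steps, against 0.616 in the core, 0.568 in far lung and 0.740 in the control section. The margin was 5.22 times the core (4.09 to 6.72) and 5.65 times far lung (4.92 to 6.48). With a core from the top 60 spots these ratios were 3.04 and 2.28, and with the smaller core patches alone the ratio to the core was 1.33, under 2-fold. The ratio to the core was also 3.25 to 3.32 with thinned spots, per-spot means or a core from the top 100 spots. After each spot was thinned to 5000 counts, 50.0% of the spots at 1 step and 65.5% at 2 steps had a Retnla count, against 19.0% in the core and 20.8% in far lung (1 core, 3 and 4 margin and 57 far spots were too shallow). Unthinned, the shares were 55.8%, 66.7%, 45.3% and 36.5%.

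Iigp1, an IRG GTPase that attacks the vacuoles of intracellular pathogens, ran from 0 through 2.05 to 6.99 at 1 step, from 0 through 1.04 to 7.14 at 2 steps and from 0 through 1.29 to 5.58 in the core. Summed, it read 2.35 at 1 step, 1.95 at 2 steps, 1.61 in the core and 0.344 in far lung. The margin was 1.37 times the core (1.13 to 1.65) and 6.38 times far lung (5.37 to 7.56).

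**Figure D3:**
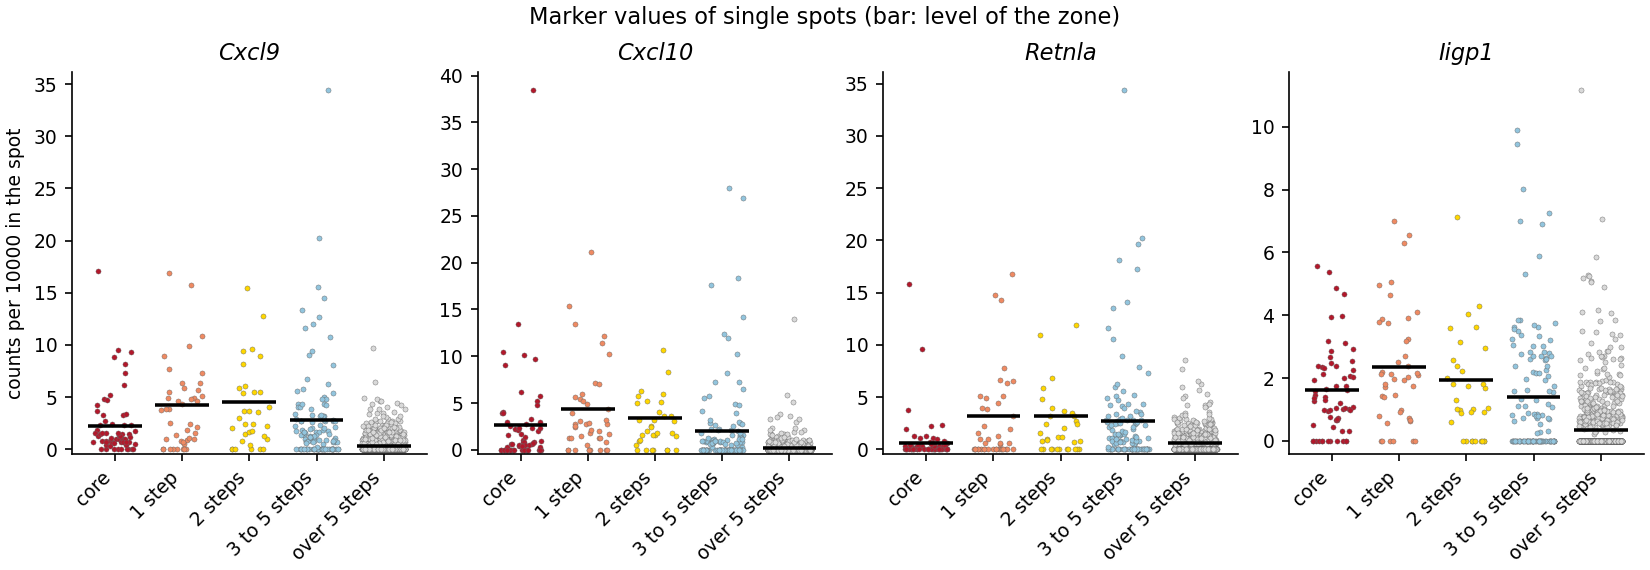
Counts per 10000 of each marker gene in single spots (points) by zone, with the level of the zone as a bar. Margin spots at 1 and 2 steps overlap with the core for all 4 genes, and the bars of Retnla stand at 3.24 and 3.18 in the margin against 0.616 in the core.

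These levels ran past the border of 200 µm. At 3 steps Cxcl9 still read 4.83 (4.19 to 5.55) and Retnla 4.83 (4.19 to 5.55), the latter above its value at 1 step. At 5 steps Cxcl9 read 1.09 and Retnla 0.869, and Cxcl10 had gone from 3.46 at 3 steps to 0.955. Mmp12 read 1.98 and Ccl5 2.75 at 3 steps. Over the 76 margin spots, as a description of spots of 1 section that share depth and position, Cxcl9 and Cxcl10 had a rank correlation of 0.593, Cxcl9 and Retnla one of 0.404, and Cxcl9 and Saa3 one of 0.104.

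**Figure D4:**
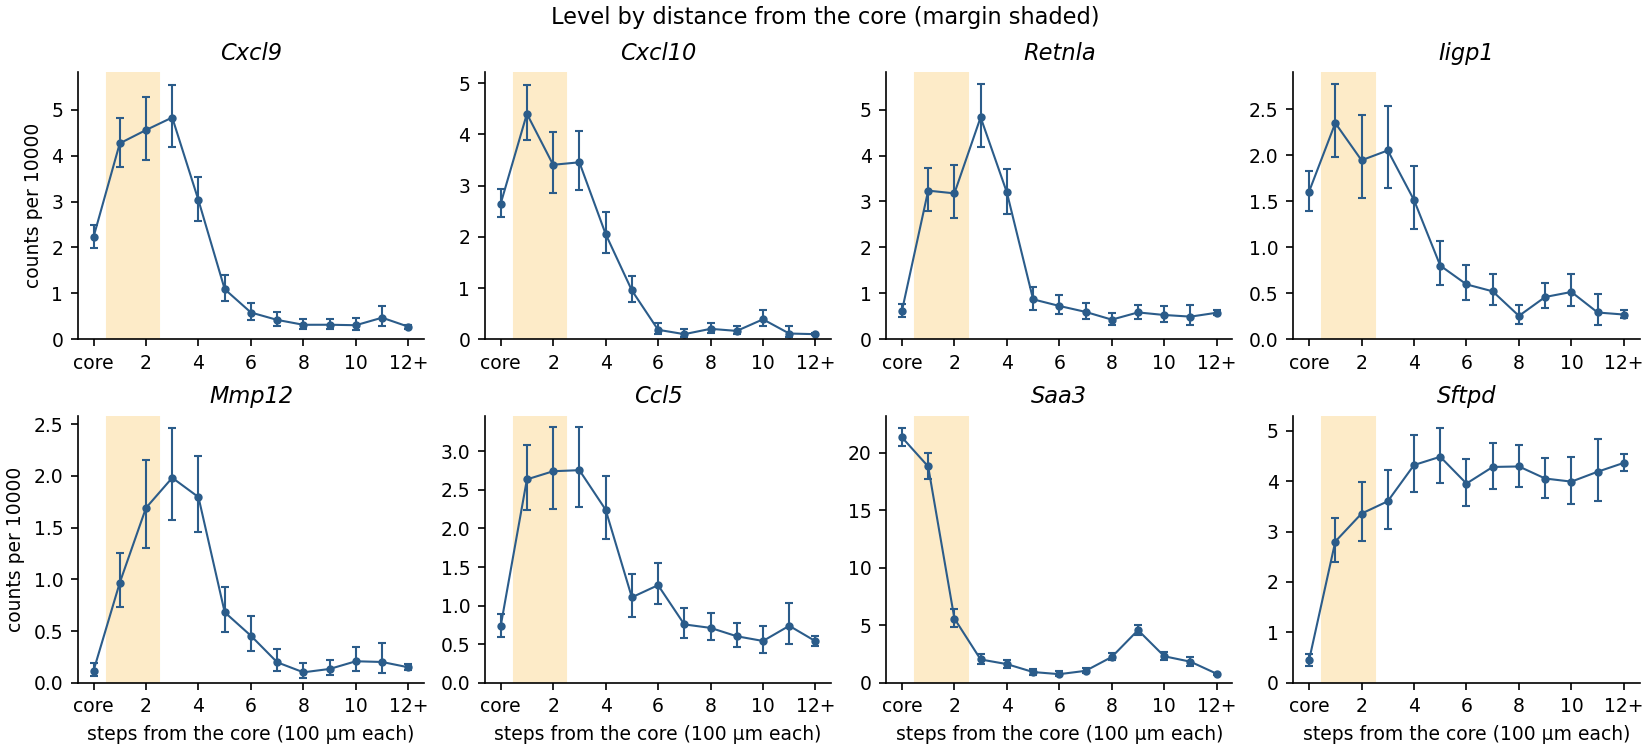
Level (counts per 10000) of 8 genes by hex steps from the core, with exact 95% counting intervals and the margin shaded. Cxcl9, Cxcl10, Retnla, Iigp1, Mmp12 and Ccl5 are higher from 1 to 3 steps than from 5 steps on, Saa3 is high in the core and at 1 step, and Sftpd is lowest in the core.

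Among the other interferon genes, the GBP and IRG GTPases stood at 5.04 times far lung (4.76 to 5.33) and 1.42 times the core (1.33 to 1.52) as a summed list. All 13 members compared of 16 were at least 2-fold higher than far lung, and 2, Gbp8 and Gbp9, were 2-fold above both. The shares over all genes were 20.0% and 1.44%. The summed list read 12.8 in the core, 19.9 at 1 step, 15.7 at 2 steps, 3.62 in far lung and 2.58 in the control section. Gbp8 read 0.727 in the margin, 0.191 in the core and 0.120 in far lung, a ratio to the core of 3.82 (2.41 to 6.23). Gbp2 read 3.73 in the margin, 1.24 times the core, and Igtp read 2.02, 1.31 times the core. Reads shared between near-identical relatives make the split among the Gbp, Tgtp, Ly6 and Gimap genes uncertain.

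Of the pathway above these targets, Socs1, a feedback inhibitor of JAK kinases, read 0.707 in the margin, 0.403 in the core and 0.102 in far lung. The receptor chain Ifngr2 stood at 0.727, 0.315 and 0.424. Ifng itself had 4 counts in the margin and 2 in the core, so its level could not be set between zones at this depth. Among 13 regulators and receptors compared, 5 were 2-fold higher than far lung, 1 (Ifngr2) was 2-fold higher than the core and 0 were 2-fold above both. Of all genes compared, 20.0%, 14.0% and 1.44% were.

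The list of type I interferon antiviral genes read 15.6 in the core, 15.2 at 1 step, 12.1 at 2 steps and 4.46 in far lung. Of 12 genes compared, 1 (Ifit3) was 2-fold higher and 1 (Rsad2) 2-fold lower than the core. Over all genes these shares were 14.0% and 1.59%. Against far lung 6 of the 12 were 2-fold higher and 1, Ifit3b, was 2-fold lower, where the shares over all genes were 20.0% and 10.9%. Isg15, a ubiquitin-like protein, read 1.06 in the margin and 1.38 in the core. Of MHC class I and the immunoproteasome, which cuts the peptides, 9 of 12 genes were 2-fold higher than far lung and 0 differed 2-fold from the core. Of all genes, 20.0% were 2-fold higher than far lung. The summed list stood at 2.23 times far lung with all counts in the library size. H2-K1 read 34.4 in the margin, 29.2 in the core and 12.1 in far lung.

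MHC class II, which presents peptides to CD4 T cells, stood above core and far lung. The summed list read 36.3 in the core, 82.2 in the margin, 66.3 at 3 to 5 steps and 29.0 in far lung, so the adjoining zone was nearer to the margin than to far lung. All 10 genes of the list were compared and all 10 were 2-fold above both core and far lung, though many were near that limit. Of all genes, 1.44% were above both. Cd74, the invariant chain, ran from 12.5 through 33.7 to 106 over spots at 1 step and from 12.3 through 47.2 to 107 at 2 steps, against 3.26 through 14.6 to 78.2 in the core. Its level was 40.1 (38.8 to 41.3) in the margin, 17.4 in the core, 13.3 in far lung and 14.9 in the control section. H2-Aa read 18.3, 8.53 and 7.14, and the transactivator Ciita 0.485, 0.169 and 0.134. The count of 10 was 4 with the library size that leaves out abundant genes, 3 with thinned spots, 3 with a core from the top 60 spots, 7 without the lone core spot and its margin and 0 with the smaller core patches alone (4 core spots). Around the lone core spot Cd74 read 75.1, and around the large metastasis 35.0.

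Genes of T cells and NK cells also stood above core and far lung. Of 15 listed, 11 were compared, 10 were 2-fold higher than the core and 9 were 2-fold above both, against 14.0% and 1.44% of all genes. Trac, the constant chain of the T cell receptor, read 0.626 in the margin, 0.125 in the core, 0.187 in far lung and 0.243 in the control section. Cd3g, part of the same receptor complex, read 0.737, 0.198, 0.190 and 0.221, and Cd8a 0.263, 0.0953, 0.0567 and 0.0423. The list summed to 5.45 at 1 step, 6.97 at 2 steps, 2.14 in the core, 4.86 at 3 to 5 steps and 1.92 in far lung, and it read 14.4 around the lone core spot and 4.84 around the large metastasis. The count of 9 was 5 without the lone core spot and its margin, 3 with thinned spots and 2 with a core from the top 60 spots. Killing and checkpoint genes were sparse, since 1 of 12 reached the limit on counts.

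B cell genes were highest around the lone core spot. Cd79a, a chain of the B cell receptor, read 0.586 in the margin, 0.220 in the core and 0.193 in far lung, but 2.56 around the lone spot and 0.301 around the large metastasis. Both B cell genes compared, Cd79a and Cd79b, were 2-fold above both, against 1.44% of all genes. Neither was without that spot, with a core from the top 60 spots or with 3 neighbours asked of a core spot. Igha, the heavy chain of IgA, was 3.17 at 1 step, 8.07 at 2 steps, 3.98 in the core and 0.825 in far lung, with 12.2 around the lone spot and 4.08 around the large metastasis. The IgG heavy chains Ighg1, Ighg2b and Ighg2c were at least 2-fold lower in the margin than in the core. Ighg1 read 0.364 and 0.792. Plasma cell and immunoglobulin genes as a list ran from 2.73 through 10.5 to 203 over spots at 2 steps. In the core they ran from 1.56 through 5.35 to 254, so a few spots can carry these sums.

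Chemokines divided into those with the margin above the core and those at the core's level. Ccl5, which attracts T cells and monocytes, read 2.68 (2.36 to 3.02) in the margin, 0.733 in the core, 0.633 in far lung and 1.34 in the control section. Ccl22 and Ccl17, ligands of CCR4 made by dendritic cells and macrophages, read 0.455 and 0.414 in the margin against 0.0806 and 0.198 in the core. Cxcl13, which attracts B cells, read 0.535 against 0.242. Ccl21a, made by lymphatic vessels, had the highest ratio to the core of all genes with 50 margin counts, but it read 0.150 at 1 step, 1.05 at 2 steps and 1.92 in far lung, and 3.76 around the lone spot against 0.0347 around the large metastasis. The monocyte attractants Ccl2, Ccl7 and Ccl8 read 2.22, 1.66 and 3.02 in the margin and 2.60, 1.63 and 3.01 in the core. All 10 monocyte-recruiting genes compared were 2-fold higher than far lung, and 1, Ccl5, also than the core. The shares over all genes were 20.0% and 14.0%.

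The 15 genes with 50 or more margin counts that stood highest above both were Ly6i, Mmp12, Ubd, Retnla, Gpnmb, Cd83, Gbp8, Cd3g, Ccl5, Rasal3, Trac, Itgax, Gimap3, Tbc1d10c and Sema4d. Mmp12, the macrophage elastase, read 0.967 at 1 step, 1.69 at 2 steps, 0.117 in the core and 0.174 in far lung, and the margin was 10.7 times the core (6.32 to 19.3). It had a count in 19 of 43 spots at 1 step and 18 of 33 at 2 steps, and in 10 of 64 core spots. Gpnmb, a lysosomal glycoprotein of lipid-laden macrophages, read 0.525 in the margin, from 52 counts, and 0.0293 in the core, from 4. Ubd, a ubiquitin-like protein, read 0.606 in the margin, 0.110 in the core and 0.0372 in far lung. Ly6i, a surface protein of the Ly6 family, read 0.636, 0.0806 and 0.0771, with 0.784 at 1 step and 0.410 at 2 steps. Itgax, the CD11c integrin of dendritic cells and alveolar macrophages, read 1.00, 0.315 and 0.250.

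Macrophage genes differed from one another in their order over the zones. Of 7 genes compared among those of alternatively activated macrophages, 4 were 2-fold higher than the core (14.0% of all genes). Of the 7, 2, Retnla and the lectin Mgl2, were 2-fold above both (1.44% of all genes). With the smaller core patches alone 0 were, and with thinned spots or a limit of 300 counts 1, Retnla, was. Chil3, a chitinase-like protein, read 1.47 in the margin, 0.205 in the core and 0.991 in far lung. Mrc1, the mannose receptor, read 0.475 and 0.660. Of 13 C1q and lipid-associated genes compared, 4 were 2-fold higher and 1 was 2-fold lower than the core, against 14.0% and 1.59% of all genes. Only 1, Gpnmb, was 2-fold above both, against 1.44% of all genes. Apoe read 11.9 in the margin and 3.38 in the core, but 9.48 in edge spots and 7.51 in inner spots of far lung. Spp1, osteopontin, read 3.15 in the margin and 9.27 in the core. Spp1 spots ran from 0 through 2.51 to 7.38 at 1 step and from 0.673 through 7.68 to 19.6 in the core.

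Genes 2-fold lower in the margin than in the core were few. Among genes with 50 or more margin counts, Mmp3 and Spp1 had the lowest ratios. Next came AA467197, Gchfr, Dnajc17, Tinagl1, Flnc, Bst1, Asph and Ercc1, at 0.403 to 0.480. Mmp3 and AA467197 helped to choose the core, so their low ratios follow from the rule. Csn3 and Etv4, also genes of the rule, were 2-fold lower too but had fewer than 50 margin counts. Tinagl1, a matrix protein, read 1.44 in the margin and 3.17 in the core. Cell cycle genes were lower by less than that. All 11 S phase genes and all 11 G2 and M phase genes compared were 2-fold higher than far lung, and 0 of either list differed 2-fold from the core. Of all genes, 20.0% were 2-fold higher than far lung. Top2a, a topoisomerase of dividing cells, read 1.36 in the margin, 1.45 in the core and 0.0920 in far lung. The genes of glycolysis and low oxygen had a median log2 ratio to the core of -0.47, against 0.17 for all genes, and Ldha read 7.82 in the margin and 11.6 in the core. Of 13 compared, 0 were 2-fold lower than the core and 1, Vegfa, was 2-fold higher, against 1.59% and 14.0% of all genes. Relative to far lung, 8 were 2-fold higher and 1, again Vegfa, was 2-fold lower, against 20.0% and 10.9% of all genes.

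Normal lung genes stood between core and far lung. Of all genes compared, 14.0% were 2-fold higher than the core and 10.9% were 2-fold lower than far lung. AT2 genes summed to 24.7 in the core, 115 at 1 step, 160 at 2 steps and 216 in far lung, and 10 of 12 were 2-fold higher than the core and 2 were 2-fold lower than far lung. Sftpc, surfactant protein C, read 89.6 in the margin, 15.7 in the core, 145 in far lung and 242 in the control section. AT1 genes summed to 5.04 in the core, 15.3 at 2 steps and 47.6 in far lung, and all 10 were 2-fold lower than far lung. Ager, a receptor of AT1 cells, read 4.26 in the margin and 17.6 in far lung. Of 13 capillary genes, 12 were 2-fold higher than the core and 11 2-fold lower than far lung; Cldn5, a tight junction protein of vessels, read 1.36, 0.271 in the core and 5.81 in far lung. Podxl, Clec14a and Scnn1a, genes of vessels and of airway and alveolar epithelium, were among the 10 highest ratios to the core without exceeding far lung. Neutrophil genes had the same order: all 8 compared were 2-fold higher than the core and 2-fold lower than far lung, with sums of 1.74, 5.32, 9.58 and 25.4, and 2.46 in the control section. S100a9, a calcium-binding protein of neutrophils, read 3.56 in the margin, 0.975 in the core and 12.9 in far lung.

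The spots at 1 step differed from those at 2 steps in few genes. Of 3635 genes with 50 or more margin counts, 29 (0.798%) were 2-fold higher at 1 step and 33 (0.908%) 2-fold lower. The 8 highest ratios were those of Alox15, Cd5l, Arg1, Saa3, Slpi, Gda, Prg4 and Marco. Saa3, an acute phase serum amyloid, read 18.8 at 1 step and 5.58 at 2 steps, a ratio of 3.37 (2.91 to 3.91), with 21.3 in the core and 1.45 in far lung. Arg1, arginase, read 1.22 and 0.307, and Cd5l, a scavenger protein of resident macrophages, 1.88 and 0.436. The lowest ratios after Ccl21a were those of Cyp4b1, Sort1, Pcolce2, Cd79a, Fmo1, Vwf and Igha. The lone core spot gave 6 of the 43 spots at 1 step but 12 of the 33 at 2 steps. Step and patch are therefore mixed in these ratios and cannot be told apart here. Ccl21a, Cd79a and Igha were higher around the lone core spot than around the large metastasis. Without that spot and its margin, the 62 genes apart in either direction became 36. Vwf, the clotting factor of large vessels, read 0.467 at 1 step, 1.26 at 2 steps and 3.07 in far lung.

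Many genes higher at 1 step were high at the edge of the tissue. At 1 step, edge spots had 41.3 of Saa3 and inner spots 3.47, a ratio of 11.9 (9.87 to 14.5). Slpi, a protease inhibitor, read 21.4 and 1.82, Marco, a scavenger receptor, 4.08 and 0.140, Prg4, a lubricating proteoglycan, 2.89 and 0.0840, and Arg1 2.84 and 0.112. Alox15, a lipoxygenase, had 61 counts in edge spots and 0 in inner spots, at least 29.9-fold higher against a floor of 3 counts over the group. Far lung had the same tilt at a lower level, with Saa3 at 5.68 in its edge spots and 0.688 inside, and the core had 33.5 and 14.1. Of the 29 genes, 16 were 2-fold higher at the edge than inside, against 169 of all 3635. Among inner spots alone, 10 of the 29 were 2-fold higher at 1 step, against 27 of all 3635. Of the 33 lower genes, 25 were also 2-fold lower there, and for this direction no share over all genes was counted. Inner spots were part of the spots that chose both sets, so these counts are a description and not an independent check. Msln, a marker of the pleural lining, read 1.44 at the edge and 0.308 inside, and the summed list of 6 mesothelial genes 4.20 and 0.504; their part in the result was not tested. Mitochondrial genes took 1.45% of the counts of edge spots and 0.413% of those inside.

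The marker chemokines had overlapping intervals at 1 step, with Cxcl9 at 4.16 at the edge and 4.34 inside and Cxcl10 at 4.70 and 4.20. In the core both were higher at the edge, Cxcl9 at 3.22 against 1.64 and Cxcl10 at 4.71 against 1.42. At 1 step Retnla read 2.27 at the edge and 3.89 inside, and Mmp12 likewise read 0.165 and 1.51. Gpnmb had 0 counts at the edge and 23 inside, at least 5.21-fold higher inside. The split by tissue edge was chosen after the values were seen.

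**Figure D5:**
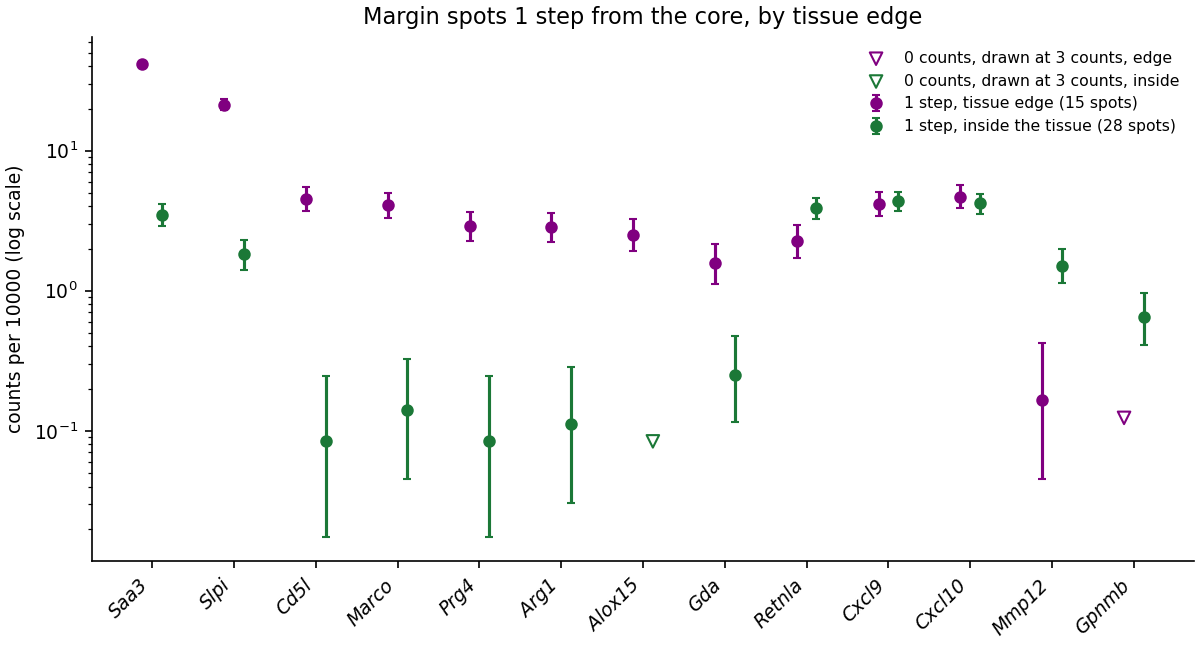
Level (counts per 10000, log scale) of 13 genes in the 15 edge spots (purple) and 28 inner spots (green) at 1 step, with exact 95% counting intervals. Open triangles stand for 0 counts and are drawn at 3 counts. Saa3, Slpi, Cd5l, Marco, Prg4, Arg1, Alox15 and Gda are higher at the edge, Cxcl9 and Cxcl10 overlap, and Retnla, Mmp12 and Gpnmb are higher inside.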

How the data were processed

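The authors deposited unnormalized counts (unique molecules, gene by spot) for 2 Visium sections, made, per the submitters' processing notes, with Space Ranger 1.3.1 on mm10. Members and gene lists were chosen with earlier results of these data known. Zones were set by hex distance from the core on the array. Counts were summed over the spots of a zone and divided by the zone's total (per 10000). Intervals were exact Poisson for levels and exact binomial for ratios (95%). Genes needed 100 counts over core, margin and far lung (50 in the margin for 1 against 2 steps). A call was a 2-fold ratio with 0.5 counts added. A count of 0 was read as up to 3 counts. Features that share a symbol (38 symbols) were kept apart. No doublet caller and no cell type estimate was run.

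Genes were named by rule, from those with 50 or more margin counts: the 15 highest over both core and far lung, the 10 highest and 10 lowest over the core, the 8 highest and 8 lowest for 1 over 2 steps, the 4 markers, the 5 core genes, and for each list its most abundant members and the ends of its range. Other list members and genes set by tissue edge were named after their values were seen. Python 3.11.15, numpy 2.4.6, scipy 1.17.1, pandas 2.3.3 and matplotlib 3.10.9 were used. The calls were run on simulated zone sums with Poisson noise alone and changes larger than 2-fold. Those simulated sums do not cover counts clustered in a few spots or changes near 2-fold. Since most genes have few counts in a spot, levels rest on zone sums. Alternatives were thinning to 5000 counts per spot, a limit of 300 counts, another library size, cores from the top 60 or 100 spots or with 3 neighbours, far lung over 8 steps, per-spot means, and the core patches apart. Promoters came from RefSeq.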

Additional observations from a re-analysis of the deposited data

How the results depend on the processing

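No paired analysis was possible because the groups share only replicate number 1, with 1 section each. Without the lone core spot, and without margin spots at the tissue edge, were alternatives chosen after seeing the data; the others were planned. The 1435 genes higher than the core were 762 with a limit of 300 counts. The 163 lower were 22 with that limit, 263 with a core from the top 60 spots and 1905 with the smaller core patches alone, which hold 4 core spots. The 148 genes above both were 89 after thinning (39 shared with the 148), 49 with the limit of 300 counts, 73 with the library size without abundant genes and 522 with the smaller patches alone (53 shared). The 62 genes apart between steps were 22 after thinning, 11 with the limit of 300 counts, 41 and 138 with cores from the top 60 and 100 spots, 132 with per-spot means, 31 with the largest patch, 28 with the smaller patches and 36 without the lone core spot. Thinning leaves 6593 genes and the limit of 300 counts 6211 in place of 10262; otherwise the cause was not tested. Cxcl9 over core was 0.634 with the smaller patches alone and 1.66 to 2.38 under the other core definitions. Across all alternatives Retnla over core was 1.33 to 7.25, Cxcl10 over core 1.10 to 1.67 and Iigp1 over core 1.27 to 1.38, and over far lung Cxcl9 was 8.20 to 19.1, Cxcl10 11.8 to 32.8, Retnla 2.28 to 7.66 and Iigp1 4.50 to 7.23. Counts limit genes such as Ifng and Cxcr3, and with 1 section no spread between animals is known.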
